A study of Mus musculus with 16 samples.

Results

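Type I interferon response genes are the genes that cells switch on when the receptor for interferon alpha and beta is engaged. The 37 genes followed here were listed by symbol, and each was read from its brightest named probe on 16 one-colour arrays of CD11b+ cells from the spleen or bone marrow of mice. A named probe was found for 35 of the 37 genes, among 28777 features that passed the same filter, and Mx1 and Mx2 were not analysed here. The arrays cover wild-type (WT) mice and mice labelled STAT4-/-, STAT6-/- and HDC-/-. STAT4 and STAT6 are transcription factors activated by interleukin-12 and interleukin-4, and HDC is histidine decarboxylase, the enzyme that makes histamine. Mice of every genotype received either the control diet or, for 3 months as a model of atherosclerosis, a high-fat diet (HFD). Each array holds RNA pooled from 5 mice, all labelled male, with 1 array for each combination of genotype, tissue and diet. Arrays with the same scan date in the file headers are taken here to share a slide, since no slide label was read. By this rule wild-type and STAT4-/- arrays of a tissue share a slide, as do STAT6-/- and HDC-/- arrays. Both diets of a genotype were thus on the same slide, whereas tissues were on different slides. Strain, age and the nature of the knockout alleles were not given in the sources used here.

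When type I interferon binds its receptor, the kinases JAK1 and TYK2 become active and phosphorylate transcription factors such as STAT2. STAT2 acts with IRF9 in a complex that binds the interferon-stimulated response element (ISRE) in the promoters of the response genes. The products block viral entry, destroy or sense foreign nucleic acid, modify proteins with ISG15, and dampen the signal again. IRF7 is itself a response gene and drives further interferon alpha production. Monocytes, macrophages and dendritic cells, which carry CD11b in varying amounts, respond strongly to interferon.

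Several arrays went against their labels, and their values are given where a result rests on them. Averaged over Ddx3y, Eif2s3y and Uty, Y-linked signal was -8.39 to -5.57 on the 4 control-diet arrays labelled STAT4-/- and HDC-/-, against -0.61 to 0.35 on the other 12. Levels are log2 intensities relative to the 75th percentile of the same array. Xist was higher on those 4 arrays (-4.20 to -2.93 against -9.26 to -5.44), so diet cannot be told apart from this difference within those genotypes. The STAT4-/- spleen array on the high-fat diet had a mean correlation of 0.970 with marrow arrays and 0.947 with spleen arrays. The HDC-/- marrow array on the control diet was slightly closer to spleen (0.954 against 0.947). Hdc was low on the HDC-/- arrays (0.98 to 1.92 against 4.06 to 5.79 on the 11 others with a usable spot). Stat6 read 2.54 to 3.04 on the STAT6-/- arrays and 3.44 to 4.14 on wild-type arrays. It read 2.34 to 4.12 under the STAT4-/- label and 2.99 to 4.05 on the HDC-/- arrays, so the STAT6-/- range overlaps both. Stat4 read 0.41 to 3.51 under the STAT4-/- label and 0.17 to 1.33 in wild type, so the arrays with that label are called STAT4-labelled. No source used here says where these probes lie relative to the deletions. Itgam, which encodes CD11b, lay between 3.13 and 6.06 on every array. Between 59.7% and 85.3% of probes were well above background.

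Promoters are shown for the genes with the largest diet difference of 1 direction in spleen that hold an ISRE core, because this element is the binding site of the response. Usp18, also among the genes with the largest such difference, had no promoter entry, so it was not searched for a core. The sequences are the 250 bases before the annotated start in RefSeq (GRCm38.p6), written 5′ to 3′ on the strand of the gene. Capitals mark the ISRE core, which is GAAA and GAAA with 2 bases of any kind between them, searched on both strands. TTTC and TTTC with 2 bases between them is the same core read from the opposite strand.

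Ifit3 (chr19:34583279-34583528, plus strand): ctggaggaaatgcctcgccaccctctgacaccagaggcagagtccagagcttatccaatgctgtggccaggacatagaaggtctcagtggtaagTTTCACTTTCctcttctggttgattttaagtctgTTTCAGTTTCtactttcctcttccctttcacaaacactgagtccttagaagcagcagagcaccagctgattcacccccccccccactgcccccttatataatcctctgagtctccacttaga
Rsad2 (chr12:26456453-26456702, minus strand): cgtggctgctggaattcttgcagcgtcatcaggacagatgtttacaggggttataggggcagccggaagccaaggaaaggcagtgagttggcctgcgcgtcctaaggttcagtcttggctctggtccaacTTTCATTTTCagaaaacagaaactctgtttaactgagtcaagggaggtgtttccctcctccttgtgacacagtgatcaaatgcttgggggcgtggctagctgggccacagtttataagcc
Ifit1 (chr19:34640639-34640888, plus strand): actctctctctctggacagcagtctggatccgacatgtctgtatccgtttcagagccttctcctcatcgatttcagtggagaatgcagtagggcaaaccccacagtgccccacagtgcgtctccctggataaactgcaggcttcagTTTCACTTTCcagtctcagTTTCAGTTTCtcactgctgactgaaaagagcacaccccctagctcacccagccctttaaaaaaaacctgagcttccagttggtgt
Slfn5 (chr11:82951852-82952101, plus strand): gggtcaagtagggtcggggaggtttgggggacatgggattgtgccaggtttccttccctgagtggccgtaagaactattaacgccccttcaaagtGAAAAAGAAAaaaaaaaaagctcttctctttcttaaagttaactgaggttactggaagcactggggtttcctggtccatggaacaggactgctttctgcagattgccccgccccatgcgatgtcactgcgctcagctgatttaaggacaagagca
Isg15 (chr4:156200819-156201068, minus strand): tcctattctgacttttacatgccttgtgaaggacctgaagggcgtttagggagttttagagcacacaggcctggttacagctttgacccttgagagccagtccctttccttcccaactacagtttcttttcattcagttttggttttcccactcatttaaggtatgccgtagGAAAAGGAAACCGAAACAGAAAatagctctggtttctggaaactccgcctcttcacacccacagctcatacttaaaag

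In Ifit3 the cores begin 156 and 122 bases before the start, and in Ifit1 they begin 104 and 85 bases before it. Rsad2 and Slfn5 hold 1 core each, 120 and 155 bases before the start, and that of Slfn5 lies in a run of adenines. Isg15 holds 3 overlapping matches, beginning 78, 72 and 66 bases before the start. Of the 35 measured genes, 26 had a promoter entry of 300 bases (250 before and 50 after the start). The core was in 10 of these 26 (38.5%), namely Ddx58, Eif2ak2, Ifih1, Ifit1, Ifit3, Ifitm3, Isg15, Rsad2, Slfn5 and Trim30a, against 3.99% of the 27025 genes with an entry. The gamma-activated site TTCNNNGAA, which reads the same on both strands, was in 5 of 26 (19.2%), against 9.55% of all genes with an entry. A core and a gamma-activated site overlapped in 1 gene, Ifitm3. A match describes letters and is not evidence that a factor binds there.

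Most of the 35 genes were high on the same few arrays. HDC-/- cells from mice on the control diet had the highest level of the 8 spleen arrays for 31 of 35 genes and of the 8 marrow arrays for 22 of 35. Among all features, 15.6% and 17.4% had their highest level on those arrays. Wild-type cells on the control diet came next: the HDC-/- and wild-type control arrays were the 2 highest for 32 of 35 genes in spleen and for 22 of 35 in marrow, against 4.67% and 2.06% of all features. In spleen the 4 genes with another highest array were Zbp1, Herc6 and Nlrc5, highest in wild type on the control diet, and Ifitm3, highest on the STAT4-labelled high-fat array. The 3 genes with another pair of highest arrays in spleen were Ifitm3, Sp100 and Eif2ak2.

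**Figure D1:**
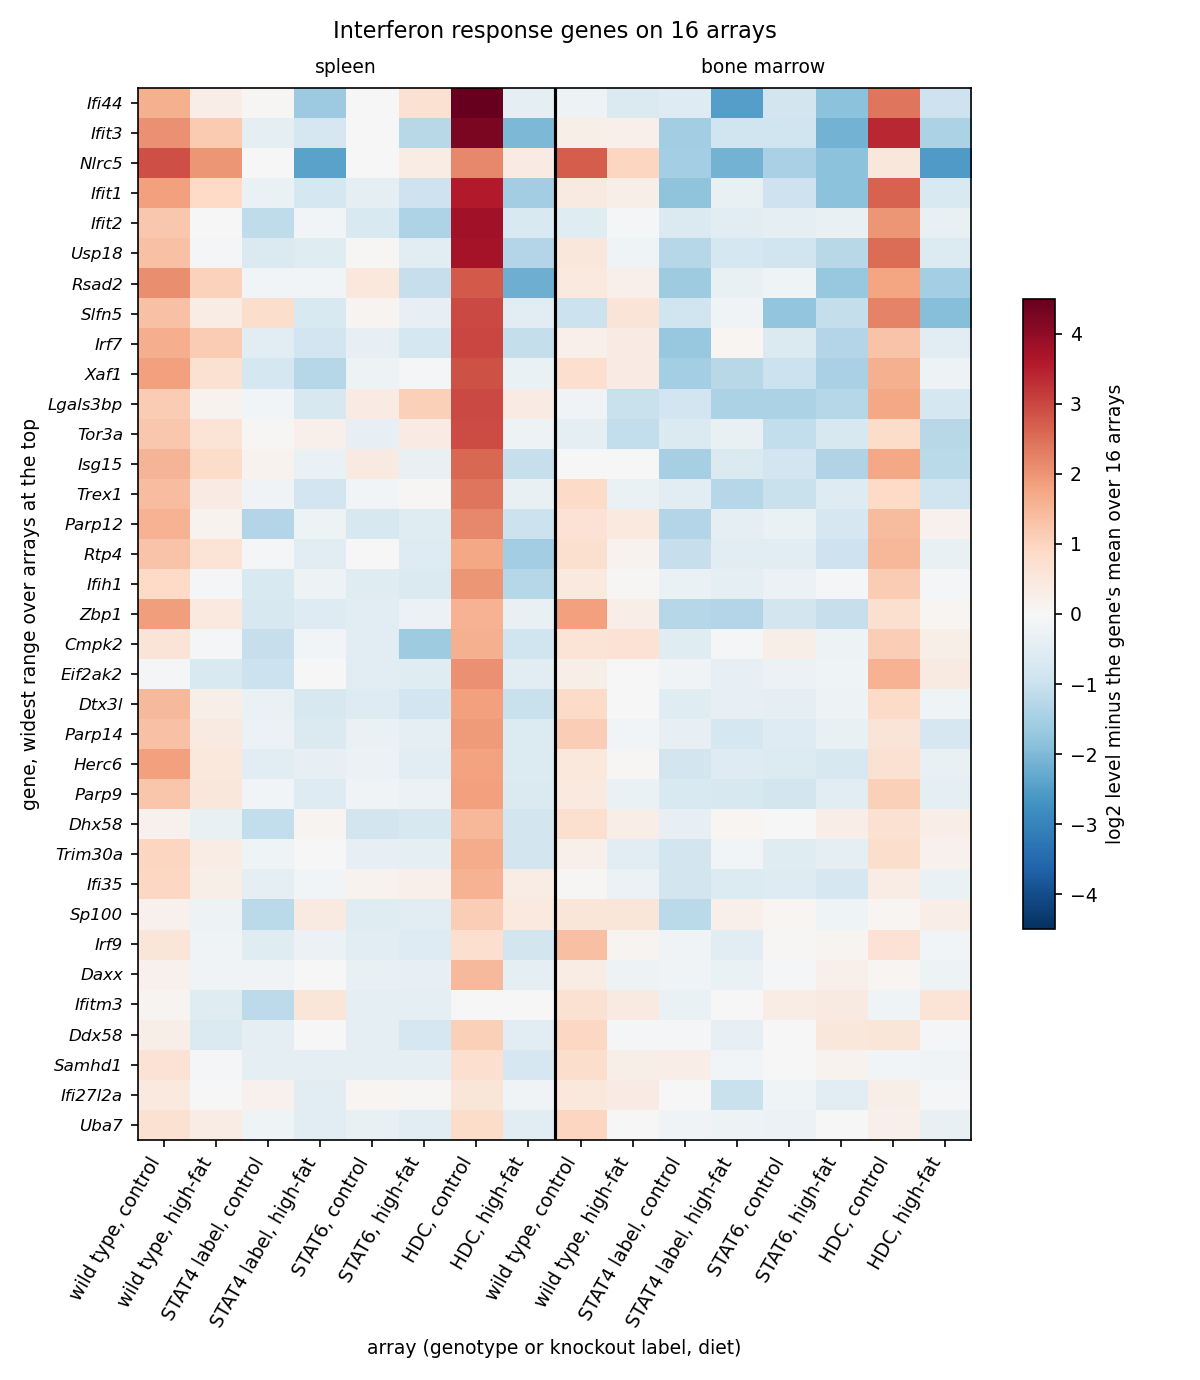
Heat map of the 35 interferon response genes (rows, widest range at the top) on the 16 arrays (columns, by tissue, genotype and diet). Colour is the log2 level minus the mean of the same gene over the 16 arrays. The columns of HDC knockout cells on the control diet, and then of wild-type cells on the control diet, are the reddest, and the bottom rows such as Uba7 and Ifi27l2a hardly change colour.

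The median level of the 35 genes gave the same order. In spleen it was 3.87 in HDC-/- and 2.77 in wild type on the control diet, and 1.39 in STAT6-/- and 1.17 in STAT4-labelled cells. On the high-fat diet it was 0.57 in HDC-/-, 1.8 in wild type, 1.22 in STAT6-/- and 0.87 in STAT4-labelled spleen. HDC-/- spleen thus held both the highest and the lowest of the 8 values. In marrow the control-diet medians were 2.99 in HDC-/-, 2.48 in wild type, 1.04 in STAT6-/- and 0.72 in STAT4-labelled cells. The marrow medians on the high-fat diet were 0.86, 1.77, 0.55 and 1.1 in the same order of genotypes, so that wild-type marrow was then the highest. In these bulk samples, fewer cells of a type and less RNA per cell cannot be told apart.

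The IFIT proteins, which bind foreign RNA through tetratricopeptide repeats, had some of the widest ranges. In spleen, Ifit3 read 3.49 on the control diet and 2.62 on the high-fat diet in wild type, 1.02 and 0.67 in STAT4-labelled, 1.40 and 0.17 in STAT6-/-, and 5.65 and -0.59 in HDC-/- cells. In marrow, Ifit3 read 1.68 and 1.64, -0.15 and 0.53, 0.54 and -0.70, and 4.83 and 0.01 in the same order. The 2 HDC-/- control arrays were thus the highest in each tissue, and the lowest value of spleen was HDC-/- on the high-fat diet. Ifit1 followed it closely, from 5.06 in HDC-/- spleen on the control diet to -0.36 in STAT6-/- marrow on the high-fat diet. Ifit2 reached 3.34 in HDC-/- spleen and 1.57 in HDC-/- marrow on the control diet and 0.80 in wild-type spleen on the control diet, and was at or below -0.43 on the other 13 arrays.

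ISG15 is a ubiquitin-like protein that is joined to other proteins, UBA7 activates it, HERC6 is a ligase for it in mice, and USP18 removes it and restrains the interferon receptor. In spleen, Isg15 read 4.05 and 3.37 (control, high-fat) in wild type, 2.67 and 2.22 in STAT4-labelled, 2.94 and 2.18 in STAT6-/-, and 5.11 and 1.49 in HDC-/- cells. In marrow it read 2.53 and 2.54, 1.05 and 1.89, 1.67 and 1.16, and 4.26 and 1.32. The high-fat array was lower in each of the 4 spleen pairs, and in marrow it was lower in STAT6-/- and HDC-/- cells and higher in STAT4-labelled cells. Usp18 ranged from 3.87 (HDC-/- spleen, control) to -1.19 (HDC-/- spleen, high-fat), a 33.3-fold span. Uba7 had the narrowest range of all 35 genes, 1.49, between 3.68 and 5.18. Herc6 was highest in wild-type spleen (1.61) and HDC-/- spleen (1.56) on the control diet and lay between -1.09 and 0.43 on the other 14 arrays.

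**Figure D2:**
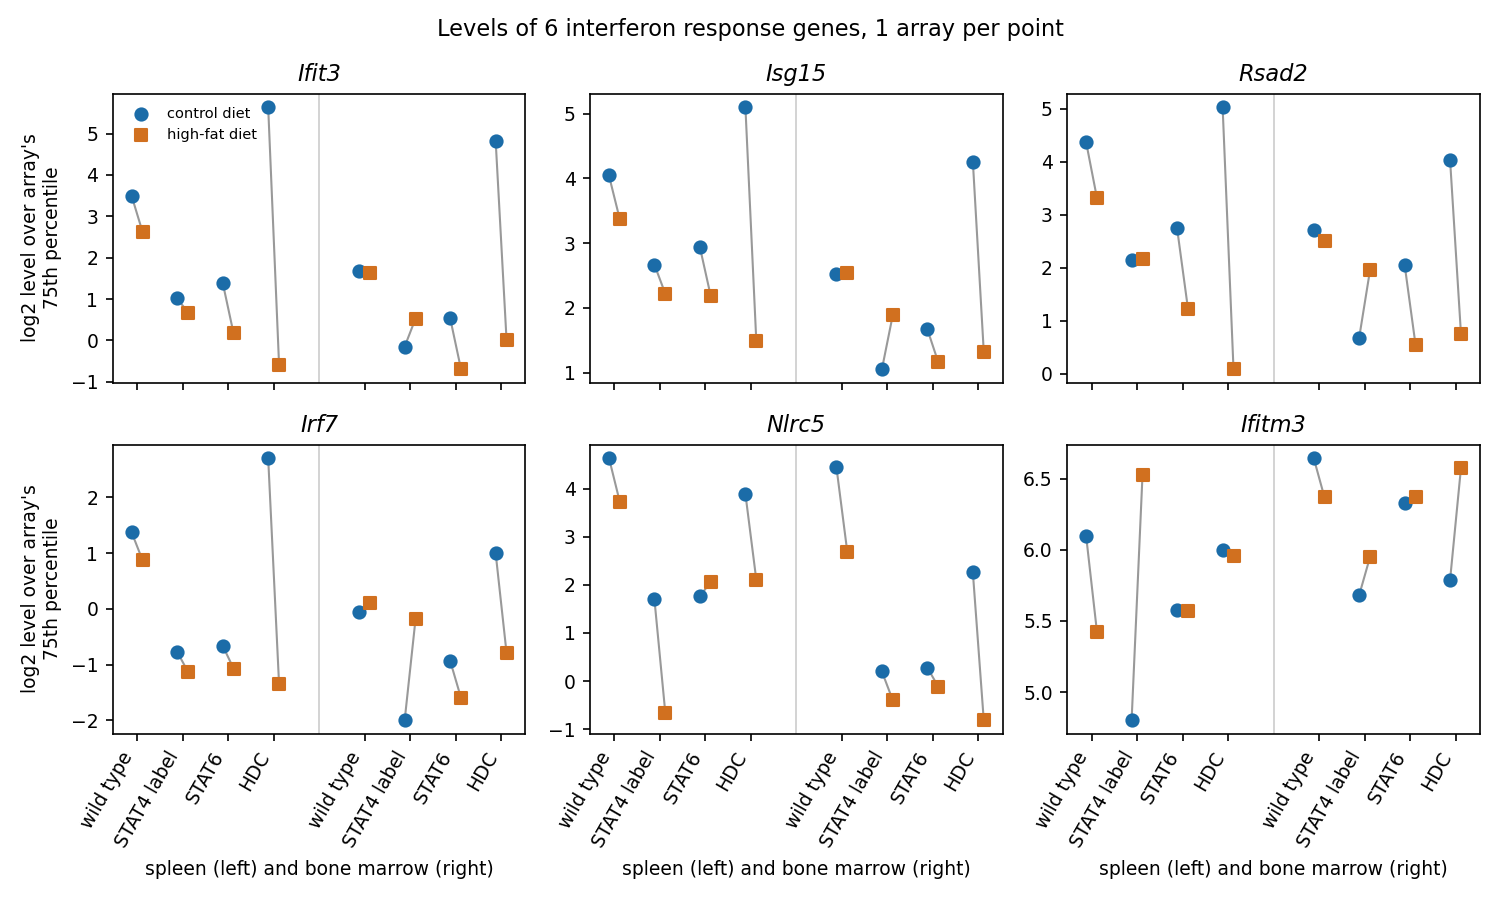
Levels of 6 of the genes (log2 intensity minus the 75th percentile of each array), with 1 array per point, circles for the control diet and squares for the high-fat diet, joined within genotype and tissue. Ifit3, Isg15, Rsad2 and Irf7 show the long drop in HDC knockout cells, Nlrc5 is highest in wild type, and Ifitm3 spans only 1.85 log2 units.

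Of the transcription factors, Irf7 varied far more than Irf9. In spleen Irf7 read 1.37 and 0.87 in wild type, -0.77 and -1.13 in STAT4-labelled, -0.66 and -1.07 in STAT6-/-, and 2.71 and -1.35 in HDC-/- cells (control, high-fat). In marrow it read -0.06 and 0.10, -2.0 and -0.18, -0.93 and -1.60, and 1.00 and -0.79. Its range was 4.71, and in STAT4-labelled marrow the high-fat array was the higher of the pair. Irf9 stayed between 2.41 and 4.59, with its highest value in wild-type marrow on the control diet.

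The RNA sensors differed among themselves. Ifih1 (MDA5) ran from 3.87 in HDC-/- spleen on the control diet to 0.57 in HDC-/- spleen on the high-fat diet. Ddx58 (RIG-I) spanned 1.82, from 3.53 to 1.72, and Dhx58 (LGP2), which modulates those sensors, spanned 2.61, from 3.63 to 1.02. Zbp1, a sensor of Z-form nucleic acid, was highest in wild type on the control diet in both tissues (2.66 in spleen, 2.61 in marrow), above HDC-/- on the control diet (2.33 and 1.48).

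Rsad2 (viperin), which makes a chain-terminating nucleotide, read 4.37 and 3.31 in wild-type, 2.15 and 2.16 in STAT4-labelled, 2.74 and 1.22 in STAT6-/-, and 5.04 and 0.08 in HDC-/- spleen (control, high-fat). Its marrow values were 2.72 and 2.50, 0.67 and 1.95, 2.06 and 0.55, and 4.03 and 0.74. The high-fat array was thus below the control array in 6 of the 8 pairs and nearly level in STAT4-labelled spleen, and above it in STAT4-labelled marrow. Other antiviral effectors moved less: Eif2ak2 (PKR, which stops translation) spanned 3.02, Trim30a 2.51, Samhd1 (which depletes nucleotides) 1.57 and Ifitm3 (which blocks entry from endosomes) 1.85. Ifitm3 and Ifi27l2a had the brightest probes of the 35 by mean level (5.98 and 5.29), but probes differ in their efficiency, so this does not rank the genes by transcript number. Trex1, the exonuclease that clears cytosolic DNA, ranged from 4.5 to 0.80.

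Ifi44 had the widest range of all, 6.96 (124-fold), from 3.35 in HDC-/- spleen on the control diet to -3.60 in STAT4-labelled marrow on the high-fat diet. Nlrc5, which drives major histocompatibility class I genes, had its own order, with wild type at the top. It read 4.65 and 3.73 (control, high-fat) in wild-type, 1.71 and -0.66 in STAT4-labelled, 1.77 and 2.06 in STAT6-/-, and 3.90 and 2.11 in HDC-/- spleen. In marrow it read 4.46 and 2.69, 0.20 and -0.40, 0.28 and -0.12, and 2.26 and -0.82. Every wild-type array was above the array of each other genotype with the same tissue and diet. Slfn5, a member of the schlafen family, was dim: its probe was well above background on 8 of the 16 arrays (4 of 4 spleen arrays on the control diet, 2 of 4 on the high-fat diet, and 1 of 4 in marrow on each diet), so its low values carry little information. The other 34 genes were well above background on all 16 arrays.

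The remaining genes filled the middle. The ADP-ribosylating proteins and their partner Dtx3l spanned 2.66 (Parp9), 3.48 (Parp12), 2.70 (Parp14) and 2.85 (Dtx3l), and Cmpk2, a mitochondrial nucleotide kinase, spanned 3.18. Xaf1, which promotes cell death, spanned 4.41, and the secreted glycoprotein gene Lgals3bp and the torsin gene Tor3a spanned 4.40 and 4.15. The interferon-induced protein Ifi35 spanned 2.40, the chaperone-like Rtp4 3.32, and the nuclear body genes Sp100 and Daxx 2.34 and 1.89. Over the 35 genes the range had a median of 3.21, against 2.35 over all features.

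**Figure D3:**
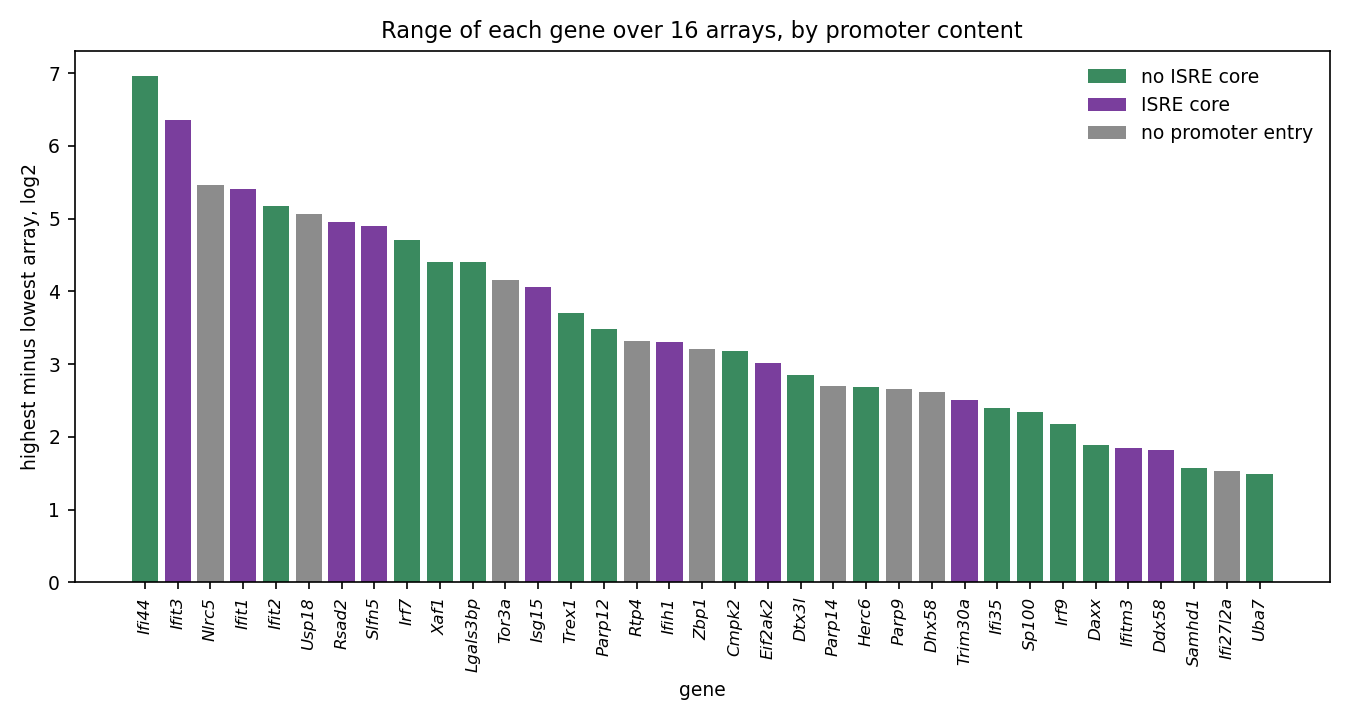
Range of each of the 35 genes over 16 arrays (highest minus lowest log2 level), coloured by whether the 300-base promoter holds an ISRE core. Genes with a core are found from the second bar (Ifit3, 6.35) to near the end (Ddx58, 1.82), and the widest range belongs to a gene without one (Ifi44, 6.96).

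Ranges of genes with and without a core overlapped widely. The 10 genes with a core had a median range of 3.68 (1.82 to 6.35), the 16 without one 3.02 (1.49 to 6.96), and the 9 with no promoter entry 3.21 (1.53 to 5.46). These figures describe the sets and were not tested.

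For 12 of the genes a second probe was read. The mean diet difference in spleen had the same sign on the second probe for all 12, but for Nlrc5 it was -0.01 on the second probe against -1.20 on the brightest. In marrow the sign was the same for 10 of 12, the exceptions being Ddx58 and Nlrc5, and between tissues for 10 of 12, the exceptions being Ddx58 and Ifih1. Its correlation with the brightest probe over the 16 arrays was 0.63 for Ddx58, 0.74 for Nlrc5 and 0.87 to 0.99 for the other 10. The second Nlrc5 probe is dim (mean level -3.74).

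Spleen and marrow cells were compared over 8 pairs of the same genotype and diet. Differences from here on are log2 differences relative to the median difference of all features in the same comparison, which was -0.06 for spleen minus marrow. Whether a gene was lower or higher in a pair is likewise judged after the median of all features in that pair is taken off. Of the 35 genes, 3 were called higher in spleen by limma at an adjusted p under 0.05 and 0 lower, while 14.9% of all features were called higher and 17.1% lower. At an unadjusted p under 0.05 there were 5 of 35 genes, against 43.4% of all features, so the shares of the response genes are below the background. With 1 pool per combination, p-values measure only the spread among these arrays, and tissue cannot be told apart from slide. Nlrc5 was 1.40 higher (SE 0.36, 2.64-fold, 7 of 8 pairs, adjusted p = 0.0182). Lgals3bp was 1.36 higher (SE 0.37, 2.57-fold, 8 of 8 pairs, adjusted p = 0.0244), with 2.72 and 1.73 in wild-type spleen against 1.42 and 0.58 in wild-type marrow. Ifi35 was 0.79 higher (SE 0.21, 1.73-fold, 8 of 8 pairs, adjusted p = 0.025). The second Nlrc5 and Lgals3bp probes were higher in spleen too, by 0.76 and 1.60 before the median was taken off.

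The median tissue difference of the 35 genes was 0.38, with 25 above the median of all features, and it was 0.10 without the HDC-/- control spleen array and 0.62 without the HDC-/- high-fat spleen array. Leaving out 1 array changed the number of calls beyond 1.5 times for 10 of 16 arrays: 0 genes were called without the STAT4-labelled control marrow array. Without the HDC-/- control spleen array 1 was called, Dhx58, and it was lower. Leaving out the HDC-/- high-fat spleen array gave 8 calls, and leaving out the HDC-/- control marrow array gave 7, all higher. The markers of other cells differed between the tissues at the same time: all 10 B cell markers, all 8 natural killer cell markers, 9 of 10 conventional dendritic cell markers and 8 of 11 red pulp macrophage markers were called higher in spleen, and 5 of 6 neutrophil precursor markers lower. The mean level of the natural killer cell markers was -3.37 to 1.96 on the spleen arrays and -4.13 to -1.06 on the marrow arrays. Their part in the result was not tested.

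On the high-fat diet the spleen levels were lower across most of the genes, but no difference was called. Of the 35 genes, 34 lay below the median of all features (0.15), the exception being Ifitm3, and their median was -1.10. No gene of the 35 and none of all features was called by limma (percent called 0.0% in each direction), with 10 of 35 and 1301 of 28777 features (4.52%) at an unadjusted p under 0.05. In 13 of 35 genes the high-fat array was lower in all 4 pairs relative to the median of all features in each pair, against 5.80% of all features.

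The 6 genes with the largest difference among those lower in every pair on this scale were Ifit3, Rsad2, Ifit1, Usp18, Slfn5 and Isg15. By level, Rsad2 (2.15 and 2.16) and Usp18 (-0.54 and -0.44) were not lower on the high-fat array in STAT4-labelled spleen. Ifit3 differed by -2.32 (SE 1.02, adjusted p = 0.771), Rsad2 by -2.03 (SE 0.82), Ifit1 by -1.93 (SE 0.85), Usp18 by -1.88 (SE 0.79), Slfn5 by -1.76 (SE 0.82) and Isg15 by -1.53 (SE 0.64), all with the same adjusted p. The value of Slfn5 is inexact, because 2 of its 4 high-fat spleen arrays were not well above background. The spread between pairs was large. For Ifit3 the pairs gave -1.05 in wild type, -0.75 in STAT4-labelled, -1.12 in STAT6-/- and -6.33 in HDC-/- cells, so the HDC-/- pair lies far from the other 3. For Isg15 they gave -0.85, -0.84, -0.66 and -3.72 in the same order.

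**Figure D4:**
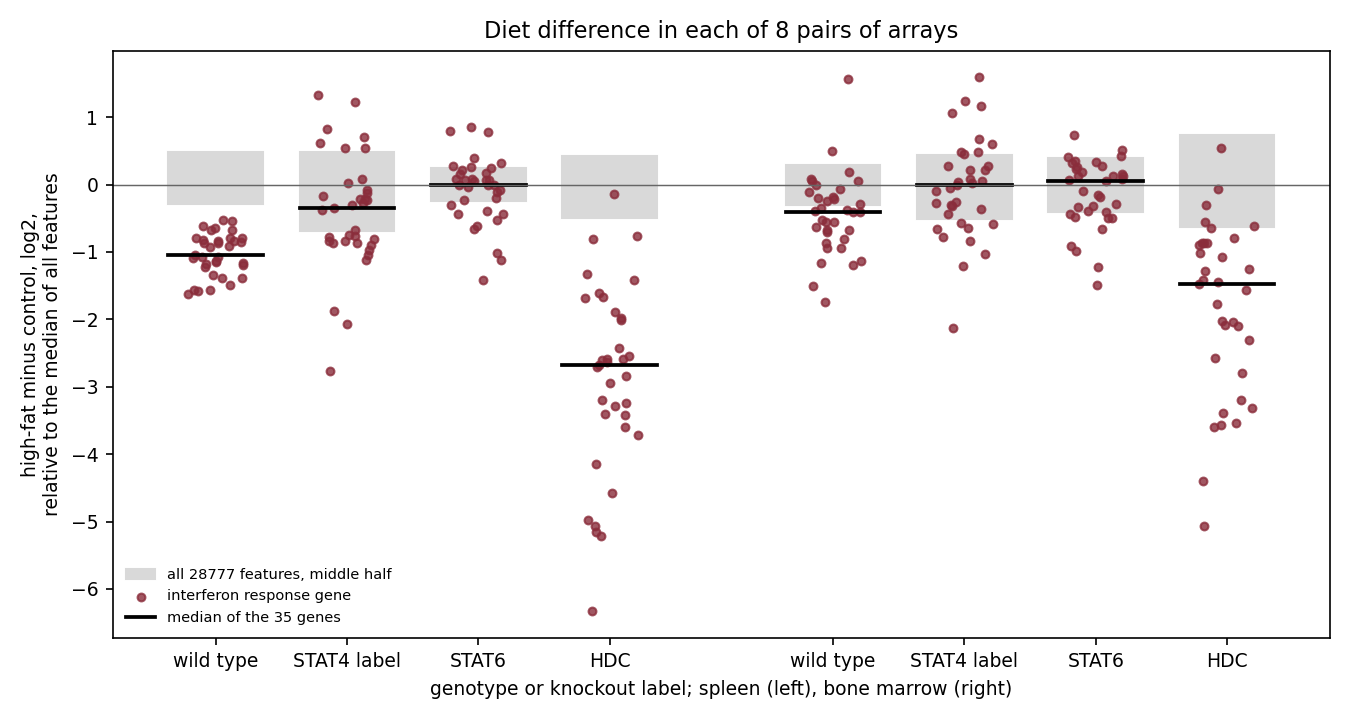
Diet difference (high-fat minus control, log2, relative to the median of all features) of the 35 genes in each of the 8 pairs of arrays. Points are genes, black lines their medians, and grey boxes span the first to the third quartile of all features. All 35 points lie below 0 in wild-type and HDC knockout spleen, and the medians of STAT6 knockout cells (0.00 in spleen, 0.06 in marrow) sit at the centre of all features.

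The pairs fell into unlike sets. In the wild-type spleen pair all 35 were lower with high-fat feeding, with a median of -1.05 and a span from -1.62 (Zbp1) to -0.53 (Uba7). Of these, 18 of 35 were at least 2-fold lower and 0 at least 2-fold higher, against 2.64% and 12.5% of all features. On the control array of this pair 70.2% of probes were well above background, and on the high-fat array 82.3%. In HDC-/- spleen all 35 were lower as well, with a median of -2.67 and 32 of 35 at least 2-fold lower and 0 at least 2-fold higher, against 12.5% and 9.98% of all features. In STAT4-labelled spleen the median was -0.35, with 5 genes at least 2-fold lower and 2 at least 2-fold higher, against 17.9% and 8.16%. In STAT6-/- spleen the median was 0.00, with 16 genes lower and 19 higher, and 3 were at least 2-fold lower and 0 at least 2-fold higher, against 3.27% and 2.94% of all features. With 1 array on each side these values describe the pairs and have no replicate check. The wild-type and HDC-/- counts are far above the shares of all features, and those of the STAT4-labelled and STAT6-/- pairs are not.

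The median over the 4 spleen pairs was -0.50 without the HDC-/- arrays and -0.51 with only the wild-type and STAT6-/- arrays, against -1.10 with all. Other markers moved with the HDC-/- spleen pair. All 8 natural killer cell markers were lower on the high-fat diet (mean level from 1.96 to -0.82), as were all 10 conventional dendritic cell markers (0.92 to -0.79) and 7 of 8 nonclassical monocyte markers (2.41 to 0.59). All 6 neutrophil precursor markers were higher (0.29 to 5.18). In wild-type spleen the classical monocyte markers differed most, with 5 of 6 lower on the high-fat diet (2.94 and 2.00, or -1.11 relative to all features, beside -1.05 for the response genes). All 11 red pulp macrophage markers (1.08 and 0.78), all 8 natural killer cell markers (1.83 and 1.57), 7 of 8 nonclassical monocyte markers (1.21 and 0.83) and 8 of 10 conventional dendritic cell markers (0.82 and 0.58) were lower there too. So were 7 of 9 mature neutrophil markers (mean difference -0.36 relative to all features) and 4 of 5 CD11b and myeloid identity markers (-0.35). All 6 neutrophil precursor markers were higher (2.23 and 2.93). The B cell (0.12), plasmacytoid dendritic cell (0.18), pro-B and pre-B cell (0.26), megakaryocyte and platelet (0.67) and erythroid markers (0.84) were higher by mean difference. Markers differed in STAT4-labelled spleen as well, where the response genes had a median of only -0.35. The high-fat array of this pair had a mean correlation of 0.970 with marrow arrays and 0.947 with spleen arrays. Diet therefore cannot be told apart from marrow-like content in this pair. All 8 natural killer cell markers (-0.57 and -3.37), all 10 B cell markers (1.9 and -0.9) and all 10 conventional dendritic cell markers (0.26 and -1.67) were lower there. Plasmacytoid dendritic cell markers were lower for 10 of 12 (0.04 and -1.88), and all 6 neutrophil precursor markers were higher (3.68 and 5.93). In STAT6-/- spleen, where the response genes had a median of 0.00, other markers were higher on the high-fat diet. These were red pulp macrophage (1.18 and 2.5, 0 of 11 lower), B cell (1.43 and 2.06, 0 of 10), natural killer cell (-0.44 and 0.06, 0 of 8) and classical monocyte markers (2.01 and 3.0, 1 of 6). All 6 neutrophil precursor markers (4.45 and 3.72) and 6 of 10 conventional dendritic cell markers (0.17 and -0.22) were lower there. The part of these cells in the interferon gene differences was not tested.

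In marrow the difference was smaller. The median of the 35 genes was -0.51 (median of all features 0.11), 33 of 35 lay below it, and 0 were called by limma (0.0% of all features in each direction), with 2 of 35 and 1737 features (6.04%) at an unadjusted p under 0.05. In 5 of 35 genes all 4 pairs were lower relative to the median of all features in each pair, against 5.79% of all features. By level, 1 of them, Ifi35, was higher on the high-fat array in STAT4-labelled marrow (-1.23 and -1.02). The 5 genes were Ifi44 (-1.77, SE 0.74), Nlrc5 (-1.57, SE 0.50), Zbp1 (-0.71, SE 0.41), Ifi27l2a (-0.55, SE 0.25) and Ifi35 (-0.33, SE 0.30), with adjusted p from 0.697 to 0.814. The second Nlrc5 probe went the other way in marrow, with 0.18 against -1.46 on the brightest probe before the median was taken off. Ifi44 read -1.35 and -1.78 in wild-type, -1.70 and -3.60 in STAT4-labelled, -1.97 and -2.97 in STAT6-/-, and 1.27 and -2.05 in HDC-/- marrow (control, high-fat).

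By pair, the marrow medians were -0.40 in wild type, -0.01 in STAT4-labelled, 0.06 in STAT6-/- and -1.47 in HDC-/- cells. At least 2-fold lower were 5 of 35 genes in wild type (2.80% of all features), 3 in STAT4-labelled (8.40%), 2 in STAT6-/- (8.74%) and 24 in HDC-/- marrow (17.9%). At least 2-fold higher were 1 gene in wild type (Slfn5, whose control array was not well above background, 3.06% of all features), 4 in STAT4-labelled (6.90%), 0 in STAT6-/- (3.80%) and 0 in HDC-/- marrow (17.7%). The highest in STAT4-labelled marrow was Irf7 at 1.59, and the lowest was Ifi44 at -2.13. Without the HDC-/- arrays the marrow median was -0.17. In HDC-/- marrow all 9 pro-B and pre-B cell markers were lower on the high-fat diet too (mean level 1.8 on the control and -4.17 on the high-fat diet). So were all 8 natural killer cell markers (-1.06 and -4.13), all 11 red pulp macrophage markers (1.24 and -0.85) and 10 of 12 plasmacytoid dendritic cell markers (-0.57 and -2.43). Of the CD11b and myeloid identity markers 0 of 5 were lower (4.05 and 5.25). The control array of this pair was slightly closer to spleen than to marrow (0.954 against 0.947), so diet cannot be told apart from spleen-like content. The part of these cells was not tested.

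Over both tissues together the median was -0.81, with 33 of 35 genes below the median of all features (0.13). None was called (0.0% of all features), and 17 of 35 had an unadjusted p under 0.05, against 12.6% of all features. Relative to the median of all features in each pair, no gene was lower in all 8 pairs. By level alone, Ifi27l2a was lower on the high-fat array in every pair, but by only 0.02 in STAT6-/- spleen (5.37 and 5.35). The difference between the diet effects of spleen and marrow was not called for any gene (0.0% of all features, all adjusted p 1.00), with 0 of 35 genes and 1.11% of all features at an unadjusted p under 0.05. Its median was -0.40, and it was 0.06 without the HDC-/- control spleen array. The 6 genes with the largest difference of 1 direction in all 4 genotypes were Dtx3l (-0.85, SE 0.60), Usp18 (-0.85, SE 1.11), Isg15 (-0.77, SE 0.90), Rtp4 (-0.72, SE 0.71), Herc6 (-0.70, SE 0.58) and Trim30a (-0.65, SE 0.61). Without the HDC-/- control spleen array Usp18 turned to 0.26, and Isg15, Rtp4 and Trim30a stood at -0.03, -0.04 and -0.07.

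Against wild type, the genes were lower in STAT6-/- and in STAT4-labelled cells and mixed in HDC-/- cells. The 3 comparisons share the 4 wild-type arrays, so their likeness is not independent, and for STAT6-/- and HDC-/- cells genotype cannot be told apart from slide. As strain was not given, none of the 3 can be told apart from a difference in strain background. In STAT6-/- cells all 35 genes lay below the median of all features (-0.01), with a median of -0.89, 18 of 35 lower in all 4 pairs (5.77% of all features) and 9 at an unadjusted p under 0.05 (6.85%). None was called by limma (0.0174% of all features were called lower and 0.0139% higher). The largest differences of 1 direction were Nlrc5 (-2.88, SE 0.50, adjusted p = 0.205), Ifit3 (-2.0, SE 1.02), Ifit1 (-1.87, SE 0.85), Zbp1 (-1.76, SE 0.41), Irf7 (-1.63, SE 0.68) and Xaf1 (-1.59, SE 0.51).

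In STAT4-labelled cells all 35 lay below the median of all features (0.20), with a median of -1.10, 29 of 35 lower in all 4 pairs (7.02% of all features) and 15 at an unadjusted p under 0.05 (9.95%). None was called (0.00695% of all features lower, 0.0104% higher). Nlrc5 came closest at -3.87 (SE 0.50, 14.6-fold, adjusted p = 0.0978), followed by Xaf1 (-2.33, SE 0.51), Zbp1 (-2.30, SE 0.41), Ifit3 (-2.05, SE 1.02), Ifit1 (-1.85, SE 0.85) and Irf7 (-1.79, SE 0.68). Nlrc5 was called when the genotype terms were shared by both tissues (adjusted p = 0.0384) and when either HDC-/- marrow array was left out (adjusted p = 0.0357). On the second Nlrc5 probe the difference from wild type was smaller, -1.05 in both STAT6-/- and STAT4-labelled cells, before the median was taken off. Both STAT4-labelled control arrays are among those low in Y-linked signal, and without the 4 such arrays the median was -1.13 in STAT4-labelled and -0.89 in STAT6-/- cells. The natural killer cell markers were below the median of all features in both genotypes, 8 of 8 with a median of -1.69 in STAT4-labelled and -1.05 in STAT6-/- cells, none of them called, and so were all 10 conventional dendritic cell markers (-0.76 and -0.43). The part of these cells in the differences was not tested.

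In HDC-/- cells the control arrays were mostly above and the high-fat arrays mostly below those of wild type. The median was 0.14 with 22 genes above and 13 below the median of all features (-0.07), and none was called (0.0521% of all features higher, 0.101% lower), with 1 gene and 10.9% of all features at an unadjusted p under 0.05. Lower in all 4 pairs were 3 genes, Nlrc5 (-1.94, SE 0.50, adjusted p = 0.192), Samhd1 (-0.41, SE 0.30) and Uba7 (-0.38, SE 0.29), against 6.76% of all features. All 11 red pulp macrophage markers lay above the median of all features (median 1.22, 0 called), and their part was not tested. Without the 4 arrays low in Y-linked signal, which hold both HDC-/- control arrays, the median was -0.82. Against STAT6-/- cells on the same slides, all 35 genes were higher in HDC-/- cells with a median of 1.00, none called (0.00695% of all features higher, 0.00347% lower) and 9 at an unadjusted p under 0.05 (6.44% of all features), and that median was 0.10 without the same 4 arrays. In the same comparison 8 of 8 natural killer cell markers (median 0.79) and 9 of 10 B cell markers (0.82) lay above the median of all features and 6 of 6 erythroid markers below it (-1.40), none called, and their part was not tested. The 4 genes higher in every pair (4.99% of all features) were Ifit2 (2.0, SE 0.75), Cmpk2 (1.12, SE 0.46), Sp100 (0.85, SE 0.40) and Ifi35 (0.81, SE 0.30).

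A further model with every pairwise term tested whether the diet difference depended on genotype. Against wild type, the diet difference of HDC-/- cells was lower for 33 of 35 genes, with a median of -1.33, and in 29 genes it was lower in both tissues, against 31.8% of all features. None of the 35 was called (0.0% of all features lower, 0.00695% higher), with 14 of 35 and 12.2% of all features at an unadjusted p under 0.05. Ifit3 had -5.14 (SE 0.53, 35.4-fold, adjusted p = 0.061), Ifit1 -3.76 (SE 0.66), Rsad2 -3.56 (SE 0.55), Ifi44 -3.30 (SE 0.78) and Usp18 -3.12 (SE 0.57), the last 4 with adjusted p from 0.119 to 0.245. Slfn5 is also among the 6 largest with 1 direction, but its value is not given because both HDC-/- high-fat arrays and the wild-type control marrow array were not well above background. Ifit3 was called with median centring (adjusted p = 0.0383), with genes required above background on 8 arrays (0.0356) and with a trended robust variance prior (0.00232), which also called Ifit1, Isg15, Rsad2 and Usp18. In each tissue the HDC-/- pair differs in Y-linked signal as well, so the genotype by diet difference cannot be told apart from it. Natural killer cell markers (8 of 8, median -2.84), red pulp macrophage markers (11 of 11, -1.49) and pro-B and pre-B cell markers (9 of 9, -3.45) lay below the median of all features in the same test, and their part was not tested.

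For STAT6-/- cells the diet difference was higher than in wild type for 29 of 35 genes (median 0.85), and for STAT4-labelled cells for 31 of 35 (median 0.75). It was higher in both tissues for 22 and 28 genes, against 26.5% and 27.5% of all features. The tests for the 3 knockouts share the wild-type arrays, so their likeness is not independent. None of the 35 genes was called by limma in STAT6-/- or STAT4-labelled cells (0.0% of all features). At an unadjusted p under 0.05 there were 3 and 5 genes, against 4.22% and 5.18% of all features. In STAT6-/- cells the largest were Zbp1 (1.68, SE 0.57), Trex1 (1.54, SE 0.51), Lgals3bp (1.51, SE 0.48), Nlrc5 (1.46, SE 0.76), Tor3a (1.41, SE 0.53) and Parp14 (1.29, SE 0.54), each with an adjusted p of 0.976. In STAT4-labelled cells they were Parp12 (1.69, SE 0.69), Sp100 (1.59, SE 0.52), Zbp1 (1.43, SE 0.57), Ifitm3 (1.35, SE 0.63), Usp18 (1.22, SE 0.57) and Dhx58 (1.16, SE 0.68), with adjusted p from 0.947 to 0.959. In the test for STAT6-/- cells natural killer cell markers (8 of 8, median 0.87), red pulp macrophage markers (10 of 11, 1.05) and classical monocyte markers (5 of 6, 0.96) lay above the median of all features as well. In that for STAT4-labelled cells natural killer cell markers (8 of 8, -2.04) and red pulp macrophage markers (10 of 11, -1.36) lay below it. The part of these cells was not tested.

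The other genes of the pathway were followed as 4 lists. Of 22 interferon ligands and receptors, 18 were tested, and none was called for diet or genotype. On the high-fat diet in spleen their median over the 4 pairs was -0.06, with 11 of 18 below the median of all features, beside -1.10 for the response genes. The pairs went different ways. Their mean difference was -0.41 in wild-type spleen (15 of 18 lower) and 0.08 in STAT4-labelled spleen (3 lower). In STAT6-/- spleen it was 0.01 (9 lower), and in HDC-/- spleen it was 0.30 (8 lower). The ligand gene Ifnb1, which had the smallest p of the list for HDC-/- cells, was dim, above background on 13 arrays. In spleen it read -2.10 and -3.61 in wild-type, -4.45 and -3.19 in STAT4-labelled, -4.69 and -2.78 in STAT6-/-, and -7.66 and -4.15 in HDC-/- cells (control, high-fat). The HDC-/- control arrays, highest for most response genes, were not well above background for Ifnb1 in spleen or in marrow (-8.07), nor was the STAT6-/- control array in marrow. Its adjusted p for diet by genotype in HDC-/- cells was 0.0848, and the size of that difference has no exact value because it rests on those arrays. The interferon alpha genes are near-identical copies, and their probes may read each other. In the tissue comparison 2 of the 18 were called higher in spleen by limma, beside 14.9% of all features. They were Ifng (3.75, adjusted p = 0.00141) and Ifna4 (1.37, adjusted p = 0.0064, well above background on 12 of 16 arrays). The 4 called lower, beside 17.1% of all features, were Ifnlr1 (-1.75), Ifnl3 (-1.04), Ifnar2 (-0.77) and Ifna13 (-0.63).

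Of 16 receptor signalling genes, 15 lay below the median of all features on the high-fat diet in spleen (median -0.40, 0 called). By pair their mean difference was -0.46 in wild-type, -0.65 in STAT4-labelled, 0.10 in STAT6-/- and -0.69 in HDC-/- spleen. Stat2 and Irf1 had differences of -1.04 and -0.70. Stat2, which acts with IRF9, read 4.32 and 3.53 in wild-type, 2.62 and 2.62 in STAT4-labelled, 2.68 and 2.58 in STAT6-/-, and 5.16 and 2.48 in HDC-/- spleen, an order like that of the response genes. In the tissue comparison 2 of the 16 were called higher in spleen by limma and 0 lower, beside 14.9% and 17.1% of all features. The 2 were Irf4 (2.86, adjusted p = 0.00493) and Irf8 (1.81, adjusted p = 0.00207), factors of lymphoid and dendritic cells. Of 19 nucleic acid sensing genes, 15 lay below the median of all features on the high-fat diet in spleen (median -0.24, 0 called). Their mean difference by pair was -0.37 in wild-type, -0.61 in STAT4-labelled, 0.27 in STAT6-/- and -0.82 in HDC-/- spleen. Tlr3, a sensor of double-stranded RNA, was dim: it was well above background on 4 of 4 control and 3 of 4 high-fat spleen arrays, and on 1 of 4 control and 0 of 4 high-fat marrow arrays. Between tissues 6 of the 19 were called higher in spleen, beside 14.9% of all features, among them Tlr3 (with no exact size, since most marrow arrays were not above background), Irf5 (1.46), Mavs (1.39) and Aim2 (1.1). Called lower, beside 17.1% of all features, were 2, Tlr9 (-0.89) and Cgas (-0.71).

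Of 51 other interferon-stimulated genes, 46 were tested. On the high-fat diet in spleen 41 of 46 lay below the median of all features (median -0.69, 0 called), with Ifi211, Phf11d and Oasl2 at -2.0, -1.8 and -1.69. Between tissues 11 of 46 were called higher in spleen, beside 14.9% of all features, led by Ifi211 (2.59), Phf11b (2.58), Phf11d (2.27) and Tnfsf10 (2.01). Called lower, beside 17.1% of all features, were 3, Slfn4 (-0.82), Tdrd7 (-0.71) and Ifitm6 (-0.64).

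In the same list Oas1a, which encodes an RNA-activated oligoadenylate synthetase, was called in all 3 comparisons with wild type. Its level was 2.79 to 5.42 on the 12 knockout arrays, all well above background, and -7.90 to -6.56 on the 4 wild-type arrays, none above background. It was at least 2100-fold higher in HDC-/- (adjusted p = 5.22e-06), at least 1020-fold higher in STAT6-/- (1.63e-05) and at least 1040-fold higher in STAT4-labelled cells (3.18e-05). These bounds set the knockout mean against the dimmest signal well above background on each wild-type array, or the wild-type signal itself where that is higher. A second Oas1a probe gave -0.78 to 2.49 on the knockout arrays and -8.88 to -6.32 on the wild-type arrays, again above background on 12 of 12 and 0 of 4. The neighbouring gene family member Oas1g was likewise above background on all 12 knockout arrays and on no wild-type array. It was called higher by limma in HDC-/- cells, at least 5.97-fold (adjusted p = 0.00839). The bounds were at least 2.54-fold in STAT6-/- (adjusted p = 0.103) and at least 2.29-fold in STAT4-labelled cells (adjusted p = 0.128), neither called.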

How the data were processed

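The deposited values are intensities: per the file headers the authors scanned one-colour Agilent arrays and extracted the processed signals with Agilent Feature Extraction 11.0.1.1, without scaling between arrays. Control and flagged spots were left out (305 probes), and 27249 of 39429 probes (69.1%) could be given a gene symbol. The log2 of each processed signal minus the 75th percentile of its array was used. A gene's brightest probe stood for it, and features well above background on fewer than 2 of 16 arrays were dropped, which left 28777 (18671 named). Median signals ran from 73.98 to 183.94, and the number of arrays limits the precision.

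limma 3.58.1 in R 4.3.3 fitted a mean for each genotype and tissue plus a diet term per tissue (6 residual degrees of freedom), and all pairwise terms for diet by genotype (3), with Benjamini-Hochberg adjustment over all features and a threshold of 0.05. The fit was tested on simulated data. Genes named are those called, up to 8 a side, or, with fewer than 3 called, the 6 largest with 1 direction in every pair relative to the median of all features, plus a set list. Of the pathway lists, called genes are named, up to 4 a side, or the 3 with the smallest p, except 1 gene that is not reported here. The members and lists were chosen with earlier results of these data known. Promoters are RefSeq, GRCm38.p6.

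Alternatives were quantile and median scaling, normexp with quantile normalization, no filter or a filter at 8 arrays, the mean over probes, a trended robust prior, slide as a block, sets of arrays left out, and each array left out in turn.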

Additional observations from a re-analysis of the deposited data

Results flagged for a closer look

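Within each set of 4 arrays of 1 tissue and 1 diet, a single genotype lay far from the other 3 for 4 genes, among 128 sets examined over 32 genes. Chance alone gives about 1 such set in 20, which is more than were found. In wild-type spleen on the high-fat diet Uba7 read 4.53, against 3.68 to 3.70 in the other genotypes. On the same array Irf7 read 0.87, against -1.35 to -1.07. In HDC-/- marrow on the control diet Ifit2 read 1.57, against -1.08 to -0.88. In STAT4-labelled marrow on the high-fat diet Dhx58 read 2.20, against 2.41 to 2.42, a small gap that stands out only because the other 3 values nearly coincide. Genotypes are not replicates of one another, so these are descriptions.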

How the results depend on the processing

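The count of genes called between spleen and marrow, 3 in all, was 0 to 8 when 1 array was left out, 7 without the 2 arrays nearer the other tissue and 7 without all HDC-/- arrays. For STAT4-labelled against wild type it was 0 to 1 when 1 array was left out, and 1 (Nlrc5) with genotype terms shared by both tissues, with or without slide as a random block. For diet by genotype in HDC-/- cells it was 1 (Ifit3) with median centring, 1 with the filter at 8 arrays and 5 with a trended robust prior. The tissue difference in diet of Usp18 was -1.65 to 0.26 when 1 array was left out, and it reversed to 0.26 without either HDC-/- spleen array. The median tissue difference in diet was -1.08 without the 2 arrays nearer the other tissue, and the median of the diet by genotype test was -1.66 to -0.89 for HDC-/- and 0.49 to 0.75 for STAT4-labelled cells when 1 array was left out. The cause of these changes was not tested. In the tissue comparison, the one with calls, 10 of 16 left-out arrays moved the count beyond 1.5 times; counts of 0 elsewhere say little about stability in so small a design. Slide as a block could not be fitted beside a mean for each genotype and tissue, which fix the slide, so it was fitted with shared genotype terms (block correlation -0.008), a model chosen after seeing the data, as was leaving out all HDC-/- arrays. No paired analysis was possible because each combination was 1 array, so replicate numbers pair nothing; the diet terms already compare arrays within genotype and tissue. Dim signal limits Slfn5, well above background on 8 of 16 arrays.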
